A study of Mus musculus with 12 samples.

Results

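Complex I (NADH:ubiquinone oxidoreductase) is the entry enzyme of the mitochondrial respiratory chain. The genes for its nuclear-encoded subunits and for some of its assembly factors carry symbols that begin with Nduf. The set described here held the autosomal protein-coding genes of the GENCODE M21 annotation whose symbol starts with Ndufa, Ndufb, Ndufc, Ndufs, Ndufv or Ndufaf, and it comprised 44 of 20807 autosomal protein-coding genes. The rule uses gene symbols and positions, not peak values. The set held 7 core subunits, 9 accessory subunits of the matrix arm, 17 accessory subunits of the membrane arm, the acyl carrier subunit Ndufab1, 8 NDUFAF assembly factors, and Ndufa4 with its relative Ndufa4l2. Ndufa1 and Ndufb11 lie on the X chromosome and were left out by the rule, as were 5 genes whose symbols match but which the annotation does not type as protein-coding.

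Complex I passes electrons from NADH through a flavin and a chain of iron-sulfur clusters in its matrix arm to ubiquinone, and couples this to proton pumping by its membrane arm. The remaining core subunits are encoded by mitochondrial DNA, accessory subunits surround and stabilise the core, and assembly factors join the modules without staying in the finished enzyme. In the testis, spermatocytes leave the basal compartment of the seminiferous tubule as prophase I proceeds, and their mitochondria and fuel use are known to differ from those of spermatogonia.

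Nascent transcription was measured by leChRO-seq, a run-on assay on isolated chromatin that labels the RNA of engaged polymerases, in spermatocytes of adult wild-type mice enriched for prophase I substages by sedimentation at unit gravity (STAPUT). There were 12 libraries, 4 each for leptonema/zygonema, pachynema and diplonema, and no group carried a mutation or a treatment. The libraries of a substage were pooled before dREG, a classifier that finds the divergent initiation signature of active promoters and enhancers, was run on them, so each substage had 1 list of peaks and no spread between libraries. The leptonema/zygonema list held 71107 peaks, the pachynema list 68352 and the diplonema list 38603. They hold no read counts, and the depth behind a peak was not analysed here.

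A gene was called in a list when the edge of a peak lay under 1000 bp from the transcription start site (TSS) of any of its annotated transcripts. The dREG score has no unit and is not scaled between lists, and therefore each gene was given the score of its highest-scoring start-site peak and a rank. The rank is the percentage of called autosomal protein-coding genes of the same list whose score was lower, so that 100 is the top of the list. A score or rank describes the initiation signature and is not an RNA level. With 1 list per substage no difference between substages could be tested, and differences are given as descriptions only. Those of the whole set, ranked among the called genes of the full lists, stand beside the same quantity over all genes.

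The labelled cell types were compared with marker genes. All 8 markers of leptotene and zygotene spermatocytes had a call in the leptonema/zygonema and pachynema lists, and 7 had one in diplonema, where Stra8, a gene of meiotic entry, had no call. Their median ranks were 58.7, 74.2 and 96.6 in the order leptonema/zygonema, pachynema, diplonema over the called markers, an order kept for all triplets of values from here on. The chromosome-axis and recombination genes Meiob, Sycp3, Sycp1 and Hormad1 ranked highest in diplonema, whereas Dmc1 ranked 58.0, 26.9 and 18.1, Spo11 58.6, 52.4 and 53.8, and Prdm9 58.9, 70.5 and 38.4. The 9 markers of pachytene and diplotene spermatocytes were called in each list with median ranks of 72.9, 77.1 and 91.6, and 4 of the 9 ranked higher in pachynema than in leptonema/zygonema. Piwil1, a piRNA pathway gene of pachytene spermatocytes, ranked 26.6, 61.9 and 98.2, while the transcription factor gene Mybl1 ranked 61.8, 69.3 and 37.9 and the bromodomain gene Brdt 86.5, 82.1 and 67.7. Spermatid markers were called in 5 of 6 cases in each list, with median ranks of 27.4, 36.1 and 39.9. The protamine genes Prm1 and Prm2 shared a rank of 19.4, 14.6 and 39.9, whereas Acrv1, an acrosomal gene, ranked 92.9, 92.9 and 66.5.

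Markers of other testis cells had fewer calls. Of 6 spermatogonial markers 4, 4 and 3 were called in the order of the substages, and Gfra1 and Nanos3 in none. Sertoli cell markers were called in 3, 5 and 3 of 6 cases with median ranks of 5.80, 19.7 and 16.2. Of 6 Leydig cell markers 0, 2 and 1 were called, and none of 8 markers of peritubular, endothelial and blood cells was called in any list. The fractions were enriched and not pure, with elongated spermatids named by the study as the main other cells. Fewer cells of a type and less nascent RNA per cell cannot be told apart in such pools, and the part of other cells in the complex I calls was not tested.

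Promoter sequences of the members that the results below describe most closely are given first. They are the bases before the representative TSS on the gene's strand, 5′ to 3′, read from GRCm38 and limited to the longest stretch of at most 200 bases outside the exons of GENCODE M21, without regard to RefSeq tRNA genes. Capitals mark matches to the motifs listed further on. Ndufs3, Ndufs7 and Ndufs8 are shown because they were called in leptonema/zygonema alone, a choice made after their values were seen.
Ndufs3, chr2:90904910-90905027, minus strand: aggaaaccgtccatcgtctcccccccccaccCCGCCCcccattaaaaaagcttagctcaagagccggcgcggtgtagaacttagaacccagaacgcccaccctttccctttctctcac
Ndufs7, chr10:80248921-80249120, plus strand: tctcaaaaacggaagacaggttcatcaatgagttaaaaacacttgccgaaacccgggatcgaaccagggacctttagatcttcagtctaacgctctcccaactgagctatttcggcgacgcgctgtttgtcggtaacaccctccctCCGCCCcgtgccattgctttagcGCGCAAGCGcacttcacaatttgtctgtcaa
Ndufs8, chr19:3912775-3912974, minus strand: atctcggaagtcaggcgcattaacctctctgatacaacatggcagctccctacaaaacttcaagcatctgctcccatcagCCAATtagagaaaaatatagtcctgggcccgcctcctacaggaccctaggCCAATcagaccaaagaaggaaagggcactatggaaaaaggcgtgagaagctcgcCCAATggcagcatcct

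Ndufc2 is shown because it had the largest negative difference in rank between leptonema/zygonema and pachynema. Ndufaf2 and Ndufs5 stand for the 5 members with the highest mean rank, and Ndufaf3 for those with no call. Ndufa8 and Ndufaf7, whose mean ranks lay between those of Ndufaf2 and Ndufs5, are not printed. The stretch of Ndufaf7 held no motif match.
Ndufc2, chr7:97399803-97400002, plus strand: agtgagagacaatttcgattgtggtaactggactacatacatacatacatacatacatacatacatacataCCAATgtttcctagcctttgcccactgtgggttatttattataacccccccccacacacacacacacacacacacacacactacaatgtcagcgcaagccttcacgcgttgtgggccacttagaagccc
Ndufaf2, chr13:108158624-108158730, minus strand: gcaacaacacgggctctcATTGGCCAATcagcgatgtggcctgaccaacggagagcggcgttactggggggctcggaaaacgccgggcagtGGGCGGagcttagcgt
Ndufs5, chr4:123718203-123718402, minus strand: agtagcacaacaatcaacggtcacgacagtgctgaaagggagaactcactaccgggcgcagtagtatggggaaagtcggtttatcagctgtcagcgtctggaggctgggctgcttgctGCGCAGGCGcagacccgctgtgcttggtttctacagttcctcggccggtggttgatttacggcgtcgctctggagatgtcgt
Ndufaf3, chr9:108567435-108567532, minus strand: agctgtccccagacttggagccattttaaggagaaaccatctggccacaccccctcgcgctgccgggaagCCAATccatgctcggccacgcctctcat

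Complex I genes carried start-site peaks in most cases. In leptonema/zygonema 42 of the 44 genes were called (95.5%, against 60.7% of all autosomal protein-coding genes). The pachynema list called 39 (88.6%, against 61.2%) and the diplonema list 37 (84.1%, against 52.3%). The 37 genes of the diplonema list were called in all 3 lists, which made 84.1% of the set against 50.2% of all genes. A member without a call in a list had none in any later list either. Such later calls were also few over all 20807 genes. There 303 had calls in all but leptonema/zygonema, 442 in pachynema only, 91 in diplonema only and 59 in all but pachynema. Of the members, 3 genes were called in leptonema/zygonema only (6.82%, against 2.84% of all genes), and 2 in leptonema/zygonema and pachynema only (4.55%, against 7.45%). Ndufa4l2 and Ndufaf3 were called in no list (4.55%, against 35.2% of all genes).

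Genes of the other respiratory complexes were also called in most cases. The lists of complexes II, III and IV held assembly factors as well as subunits. Of the 68 genes of complexes II to V, 58, 57 and 52 were called in the order of the substages. Complex III had 15, 14 and 12 of 15 listed genes called, and complex V had 16, 16 and 14 of 17. Complex II had 7 of 8 genes called in each list, and complex IV 20, 20 and 19 of 28. The 10 complex I assembly genes that do not carry an Nduf symbol had calls in each of the earlier substages, and 9 had them in diplonema, where Foxred1 had no call.

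**Figure D1:**
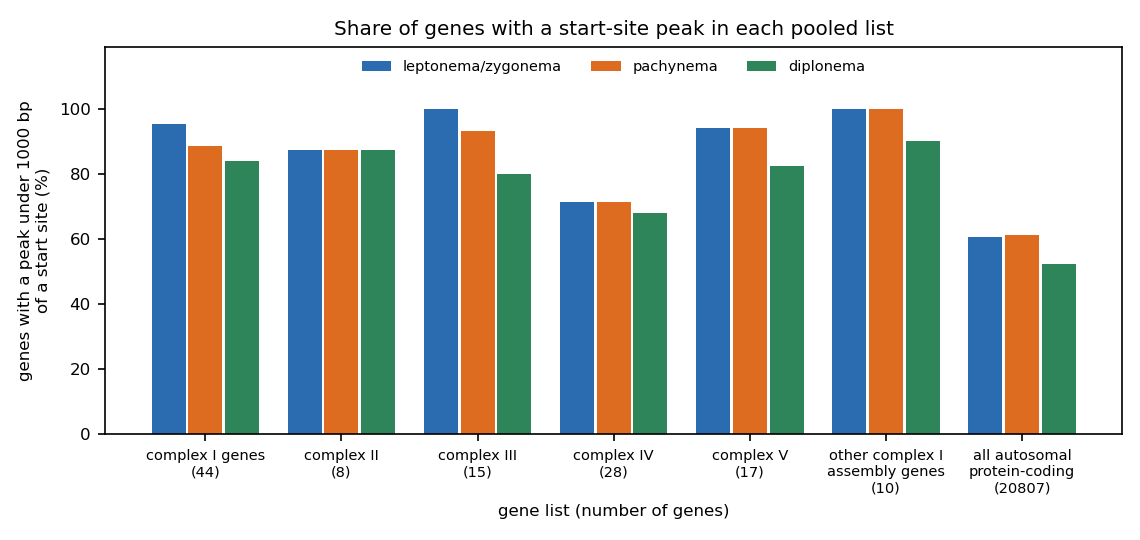
Bars give the percentage of genes of each list (number of genes in brackets) with a dREG peak under 1000 bp of a start site, for the pooled lists of leptonema/zygonema (blue), pachynema (orange) and diplonema (green). Complex I had 42, 39 and 37 of 44 genes called, and its share in each list stood above the 60.7, 61.2 and 52.3% of all autosomal protein-coding genes.

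The ranks of the called complex I genes spread over the whole list. Their median rank was 54.2 in leptonema/zygonema, with a range of 11.1 to 99.6. For pachynema it was 58.1 (11.0 to 99.1), and for diplonema 52.1 (1.66 to 99.6). The upper ranks held more members in pachynema than in the other lists. In the order of the substages, 6, 15 and 8 called members had a rank of at least 75, which is 14.3, 38.5 and 21.6% of them, against about 25% of all called genes by construction. A rank of at least 90 was held by 3, 8 and 4 members, or 7.14, 20.5 and 10.8%, against about 10%. For complexes II to V together the median ranks were 55.1, 58.9 and 54.8.

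Between leptonema/zygonema and pachynema, 24 of the 39 genes called in both had a higher rank in pachynema and 15 a lower one, beside 51.5% higher over all genes, with a median difference of 8.47 points against 0.498 over all 11989 genes called in both. The 95% interval of the members' median, which covers the spread over genes only, ran from -1.62 to 16.4 and so included 0. Ranked among all peaks of a list, the median difference was 3.94 points. In pachynema 12 members ranked higher by at least 20 points (30.8%, against 11.1% of all genes) and 3 lower by that much (7.69%, against 10.8%). For complexes II to V together the median difference was 1.49 points, and 31 of 56 genes were higher in pachynema. Within them the complex II list, assembly factors included, differed by more than complex I, with a median of 22.1 points and 5 of 7 genes higher.

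From pachynema to diplonema the members differed about as all genes did. Of the 37 genes called in both, 16 were higher and 21 lower in diplonema, beside 40.1% higher over all genes, with a median difference of -5.50 points against -4.31 over all 10742 genes. With lists of equal size the members' median difference was -1.78 points. Ndufa9 was the 1 member that ranked higher by at least 20 points in diplonema (2.7%, against 7.8%), and 9 ranked lower by that much (24.3%, against 21.7%).

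**Figure D2:**
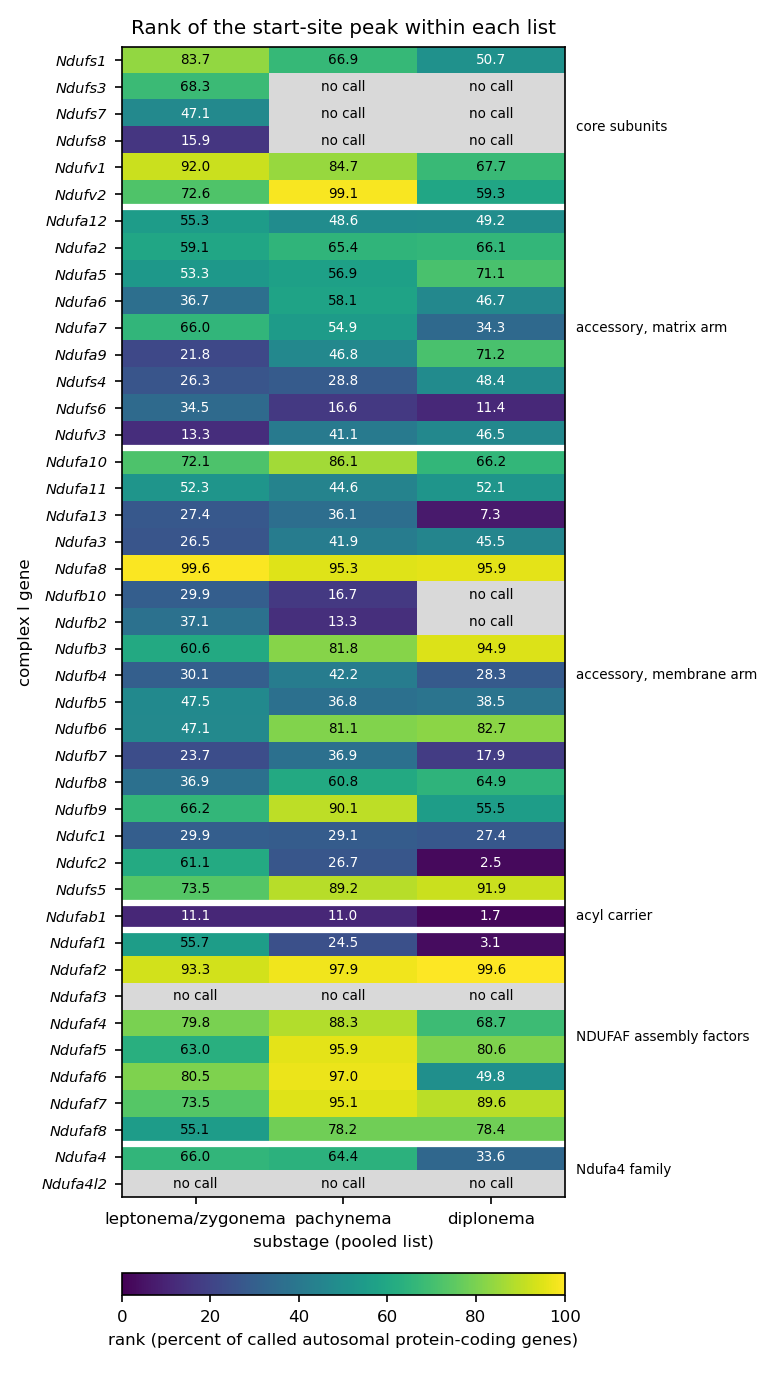
The heat map gives the rank of 43 complex I genes (rows, grouped by role) in the pooled list of each substage (columns), as the percentage of called autosomal protein-coding genes with a lower score. Grey cells had no peak under 1000 bp of a start site. Ndufs3, Ndufs7 and Ndufs8 were called in leptonema/zygonema alone, Ndufb2 and Ndufb10 in all but diplonema, and the NDUFAF rows hold many of the highest ranks in pachynema.

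The 7 core subunits form the electron path from NADH to ubiquinone, and they differed in how long their calls lasted. Ndufs1, Ndufv1 and Ndufv2 were called in each list and ranked lower in diplonema than in pachynema, and Ndufs3, Ndufs7 and Ndufs8 were called in leptonema/zygonema only.

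Ndufv2, an iron-sulfur subunit at the NADH-oxidising tip, had scores of 1.19, 1.39 and 0.918 and ranks of 72.6, 99.1 and 59.3, so that pachynema stood above both neighbours. Its pachynema rank was the highest of any member in that list. Ndufv1, which binds NADH and the flavin, scored 1.31, 1.24 and 0.981 and ranked lower in each later substage, with ranks of 92.0, 84.7 and 67.7. Ndufs1, the largest iron-sulfur subunit of the matrix arm, scored 1.25, 1.15 and 0.844 and was likewise lower in each later list, with ranks of 83.7, 66.9 and 50.7. The order from high to low thus differed between these genes, and with no replicate lists the spread behind each rank is not known.

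Ndufs3, a subunit of the ubiquinone-binding module on chromosome 2, had a leptonema/zygonema peak from 90904601 to 90905290 with a score of 1.17 and a rank of 68.3. The nearest peak to any of its annotated starts was 7684 bp away in pachynema and 7784 bp away in diplonema. Kbtbd4, on the opposite strand with its 5′ end 87 bp from that of Ndufs3, shared this peak and was likewise called in leptonema/zygonema only. With 5′ ends this close, the calls of both genes rested on the same peak and are not separate observations.

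Ndufs7, which carries the last iron-sulfur cluster before ubiquinone, had a best peak from 80249141 to 80249560 on chromosome 10, with a score of 1.03 and a rank of 47.1 in leptonema/zygonema. The nearest peaks in pachynema and diplonema were 8196 and 11036 bp away. RefSeq annotates a pair of tRNA genes beside this start, n-TFgaa3 from 80248964 to 80249036 on the minus strand and n-TNgtt7 from 80249159 to 80249232 on the plus strand, and each lay inside a leptonema/zygonema peak. The Ndufs7 sequence printed above contains n-TFgaa3. Ndufs7 was the 1 member with a tRNA gene under 1000 bp of its representative TSS (2.27%, against 0.163% of all autosomal protein-coding genes). Run-on libraries also label RNA of other polymerases, and the part of the tRNA genes in this call was not tested.

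Ndufs8, another iron-sulfur subunit next to the ubiquinone site, had the weakest call of the group. Its best leptonema/zygonema peak ran from 3912261 to 3912740 on chromosome 19 with a score of 0.62 and a rank of 15.9. The nearest peaks lay 5567 bp away in pachynema and 16917 bp away in diplonema. Ndufs3, Ndufs7 and Ndufs8 thus had a high, a middle and a low rank in the list that called them.

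**Figure D3:**
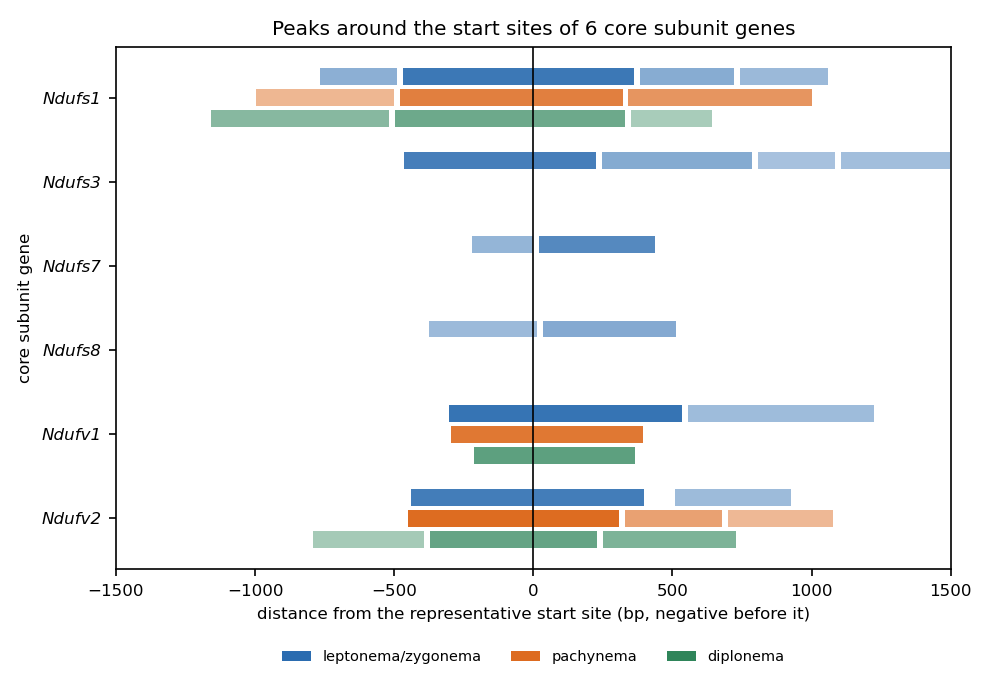
Bars show the dREG peaks around the representative start site (0 on the x axis, in bp, negative before the start) of 6 core subunit genes, for leptonema/zygonema (blue), pachynema (orange) and diplonema (green). Darker bars have higher dREG scores. Ndufs3, Ndufs7 and Ndufs8 have blue bars only, while the other genes have a peak over the start in each list.

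All 9 accessory subunits of the matrix arm were called in each list, with median ranks of 36.7, 48.6 and 48.4. Ndufa9, which sits at the ubiquinone end of the arm, scored 0.719, 1.00 and 1.00 and ranked higher in each later list, with ranks of 21.8, 46.8 and 71.2. Ndufs4, a subunit of the NADH-oxidising module, scored 0.792, 0.796 and 0.823 while its rank went from 26.3 and 28.8 to 48.4. Its best peaks in leptonema/zygonema and pachynema did not overlap. Ndufv3, of the same module, ranked 13.3, 41.1 and 46.5.

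Ndufa5 and Ndufa2, small subunits of the matrix arm, lay above the middle of each list, with ranks of 53.3, 56.9 and 71.1 for Ndufa5 and 59.1, 65.4 and 66.1 for Ndufa2. Ndufa6 ranked 36.7, 58.1 and 46.7, and Ndufa12, the subunit whose place Ndufaf2 holds during assembly, 55.3, 48.6 and 49.2. The best leptonema/zygonema peak of Ndufa6 was a different one, which overlapped neither its pachynema nor its diplonema best peak. Ndufs6, a zinc-binding subunit, and Ndufa7 ranked lower in each later list, with ranks of 34.5, 16.6 and 11.4 for Ndufs6 and 66.0, 54.9 and 34.3 for Ndufa7. The best peak of Ndufs6 was a different one in each list, since none of the 3 overlapped another.

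The 17 accessory subunits of the membrane arm were all called in leptonema/zygonema and in pachynema, and 15 in diplonema. Their median ranks were 47.1, 42.2 and 52.1, the last over the 15 called. Gene by gene, however, the median pachynema minus leptonema/zygonema rank was 12.1 points, and 10 of the 17 ranked higher in pachynema. Ndufa8, a subunit of the intermembrane-space face, was near the top of each list with scores of 1.43, 1.32 and 1.22 and ranks of 99.6, 95.3 and 95.9. Ndufs5, from the same face, scored 1.19, 1.27 and 1.17 and ranked 73.5, 89.2 and 91.9.

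Several Ndufb subunits of the membrane arm ranked higher in pachynema than in leptonema/zygonema. Ndufb6 went from a score of 1.03 and a rank of 47.1 to 1.22 and 81.1 in pachynema, and it had 1.09 and 82.7 in diplonema. Ndufb3 ranked 60.6, 81.8 and 94.9, Ndufb8 36.9, 60.8 and 64.9, and Ndufb9 66.2, 90.1 and 55.5. Ndufa10, which resembles nucleoside kinases, ranked 72.1, 86.1 and 66.2.

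Other membrane-arm genes ranked lower in the later lists or lacked a call there. Ndufc2 scored 1.13, 0.765 and 0.311 with ranks of 61.1, 26.7 and 2.47. In diplonema its peak no longer covered a start, and the nearest edge was 478 bp away. Ndufb2 scored 0.932 in leptonema/zygonema and 0.541 in pachynema, with ranks of 37.1 and 13.3, and its nearest diplonema peak was 17654 bp away. Ndufb10 scored 0.843 and then 0.603, with ranks of 29.9 and 16.7, and its nearest diplonema peak lay 2449 bp away, which made it the member closest to the 1000 bp limit without a call.

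The remaining membrane-arm genes kept to the lower and middle ranks. Ndufb5, Ndufa11, Ndufa3, Ndufb4, Ndufb7 and Ndufc1 ranked between 17.9 and 52.3 in every list. The best leptonema/zygonema peak of Ndufa11 lay 567 bp from its starts, nearer to Vmac, and overlapped neither of its later best peaks. The best pachynema peak of Ndufc1 likewise overlapped neither of its others. Ndufa13 ranked 27.4, 36.1 and 7.33, and its best peak in each list lay 658 to 708 bp from its own starts and near those of Tssk6 and Yjefn3. Without peaks nearer to another gene, Ndufa13 was called in leptonema/zygonema only. Ndufab1, the acyl carrier protein that also serves mitochondrial fatty acid synthesis, was the lowest member, with scores of 0.524, 0.499 and 0.298 and ranks of 11.1, 11.0 and 1.66.

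The NDUFAF assembly factors held the highest median ranks of the role groups with more than 1 gene, at 73.5, 95.1 and 78.4, and 7 of 8 were called in each list. In pachynema 6 of the 7 ranked higher than in leptonema/zygonema, with a median difference of 16.4 points. The 10 assembly genes without an Nduf symbol had median ranks of 53.5, 66.1 and 50.1, and 4 of the 10 ranked higher in pachynema, with a median difference of -3.78 points. Ndufaf2, a late assembly factor, was the member with the highest mean rank, with scores of 1.32, 1.35 and 1.33 and ranks of 93.3, 97.9 and 99.6. Ndufaf5, which hydroxylates an arginine of Ndufs7, ranked 63.0, 95.9 and 80.6. Ndufaf7, an arginine methyltransferase, ranked 73.5, 95.1 and 89.6.

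Ndufaf8, the partner that stabilises Ndufaf5, ranked 55.1, 78.2 and 78.4, and Ndufaf4 79.8, 88.3 and 68.7. Ndufaf6 had a score of 1.23, 1.34 and 0.837 and ranks of 80.5, 97.0 and 49.8, the largest negative difference of the set between pachynema and diplonema. Ndufaf1, which works with Ecsit and Acad9 on the membrane arm, was the exception. It scored 1.09, 0.727 and 0.321 and ranked 55.7, 24.5 and 3.15, while Ecsit ranked 84.7, 61.5 and 27.7 and Acad9 56.8, 65.5 and 79.3. Ndufaf3, the partner of Ndufaf4, had no call, and its nearest peak lay 5707, 19597 and 20347 bp from an annotated start.

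Ndufa4, first described as a complex I subunit and now placed with complex IV, ranked 66.0, 64.4 and 33.6. Ndufa4l2, its hypoxia-induced relative, had no call, with the nearest peak 11364, 11384 and 106164 bp away. Among regulators of mitochondrial gene expression, 8, 11 and 9 of 11 genes were called in the order of the substages. Ppargc1a, a coactivator of mitochondrial biogenesis, was called in pachynema only with a rank of 9.13, and Tfam, which packages mitochondrial DNA, ranked 85.7, 55.6 and 70.5.

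The genes left out by the rule gave further values. The X-linked Ndufa1 was called in each list with scores of 0.734, 1.04 and 0.87, and the X-linked Ndufb11 with 1.06, 0.997 and 0.812. Ndufb1-ps, typed as a bidirectional promoter lncRNA, scored 1.01, 0.81 and 0.759, and the processed pseudogene Ndufa11b 1.36, 1.36 and 0.75. The pseudogenes Ndufab1-ps, Ndufb4c and Ndufs6b had no peak under 1000 bp in any list.

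The peaks lay close to the starts. The best peak covered an annotated TSS in 39 of 42, 34 of 39 and 33 of 37 called members, in the order of the substages, which is 92.9, 87.2 and 89.2% against 82.7, 81.4 and 81.8% of all called genes. The median position of its centre was -18 bp from the nearest TSS in each list, where the minus sign means before the start. From the representative TSS the medians were -11, 8 and -10 bp, so the side of the start turned in pachynema. The centre was within 200 bp of a TSS in 38, 33 and 32 members, or 90.5, 84.6 and 86.5% against 78.2, 76.7 and 77.6%. The best peaks of leptonema/zygonema and pachynema overlapped in 34 of the 39 genes called in both (87.2%, against 89.1% of all genes), and those of pachynema and diplonema in 34 of 37 (91.9%, against 88.8%). No peak lay under 1000 bp of a pair of members.

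Many members share their start region with a gene on the opposite strand. The 5′ end of such a protein-coding gene lay under 1000 bp from that of 19 members (43.2%), against 11.2% of all autosomal protein-coding genes, at a median distance of 99 bp. All 19 members were called in leptonema/zygonema and 18 in each later list, while of the other 25 members 23, 21 and 19 were called. Over all genes, 94.7, 94.2 and 89.3% of those with such a neighbour were called, and 56.5, 57.1 and 47.7% of the rest. Median ranks were 60.6, 66.2 and 55.1 with such a neighbour and 37.1, 46.8 and 49.2 without one. Over all genes the same split gave 63.1, 65.5 and 63.3 against 46.3, 46.5 and 46.4.

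In 15 of the 19 pairs the member and its neighbour had the same rank in every list that called them, and where they share a peak its score cannot be assigned to 1 gene. In 18 of the 19 pairs both genes were called in the same number of lists. This follows largely from the rule, since starts under 1000 bp apart mostly lie near the same peaks. The count over all such pairs of the genome was not made. Ndufs1 and Eef1b2, a translation elongation factor gene whose 5′ end lies 8 bp away, had the same ranks of 83.7, 66.9 and 50.7. Ndufa8 shared its ranks with Morn5, Ndufaf2 with the repair gene Ercc8, and Ndufaf7 with Cebpz. Ndufv3 and Wdr4 differed, with ranks of 94.1, 88.1 and 58.1 for Wdr4, and so did Ndufs6 and Mrpl36, a mitochondrial ribosomal protein gene with ranks of 34.5, 47.6 and 36.6.

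Promoters were searched for 8 motifs on both strands of the 300 bases from 250 before the TSS to 50 from it on. The letters were GCGCANGCG for NRF1, CCGGAAG for ETS factors, AAGATGGC for YY1, GGGCGG for SP factors, CCAAT for NFY, TGACGTCA for CRE, GGCNGTT for MYB and GTTGCNA for RFX, where N is any base. The YY1 letters were found in 7 of the 44 members (15.9%, 95% Wilson interval 7.93 to 29.4%), against 3.10% of all autosomal protein-coding genes and 4.30% of those called in pachynema. The letters of NRF1, a regulator of respiratory genes, were also in 7 members (15.9%, against 8.48% and 12.9%). A match is a description of the letters and does not show binding, and the interval covers the counting of genes only.

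Of the other motifs, some were more and some less frequent than in the background. SP letters were in 47.7% of members against 46.1% of all genes and 61.4% of those called in pachynema, ETS letters in 13.6% against 11.4 and 16.6%, and CRE letters in 6.82% against 2.50 and 3.56%. NFY letters were in 31.8% against 38.2 and 38.5%, MYB letters in 6.82% against 12.3 and 13.6%, and RFX letters in 9.09% against 10.2 and 10.6%. With the window begun 100 bp before the TSS, MYB letters were in 2.27% of members against 7.06% of all genes and 7.96% of those called in pachynema, RFX letters in 2.27% against 5.61 and 6.10%, and YY1 letters in 15.9% against 2.17 and 3.12%. The median GC content of the windows was 57.3% in members, 56% in all genes and 60.3% in those called in pachynema.

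**Figure D4:**
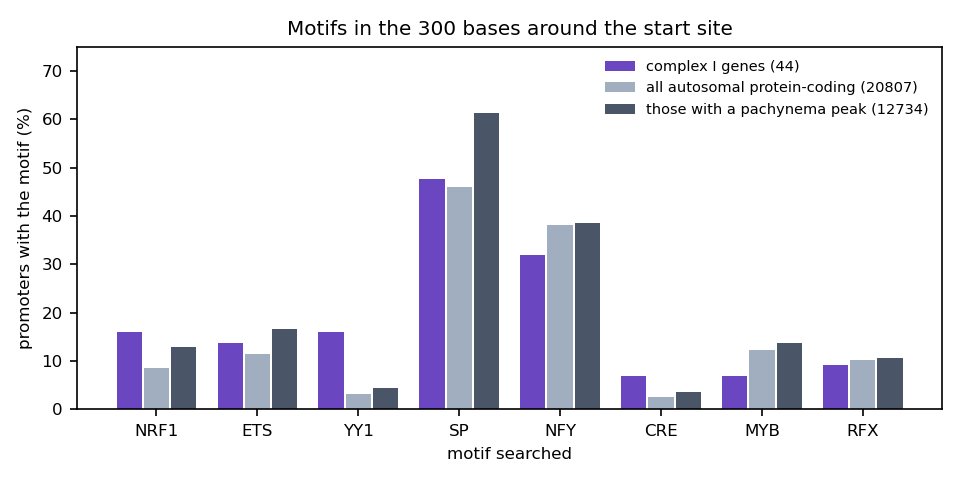
Bars give the percentage of 300-base promoter windows that hold each motif on either strand, for the 44 complex I genes (purple), all 20807 autosomal protein-coding genes (light grey) and the 12734 of them called in pachynema (dark grey). YY1 letters stand at 15.9% in complex I genes against 3.10 and 4.30%, and MYB letters at 6.82% against 12.3 and 13.6%. In the shorter window, which is not drawn, MYB and RFX letters were each in 2.27% of members.

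The 7 YY1 matches had a common place. All 7 were read on the gene's own strand and began within the first 50 bases of the transcript, whereas 64% of the 664 matches over all genes were on the gene strand and 37% were on that strand within those bases. A selection of 5 is printed on the gene strand as 30 bases around the match, with the YY1 letters in capitals, because this position was what they shared. Ndufa2, whose match begins at base 35, is described without its sequence.
Ndufa9, chr6:126849097-126849126, minus strand: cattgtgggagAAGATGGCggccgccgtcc
Ndufb8, chr19:44555391-44555420, minus strand: aaccgcggagaaggtgAAGATGGCtgccgc
Ndufa3, chr7:3617384-3617413, plus strand: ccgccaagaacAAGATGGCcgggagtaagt
Ndufaf8, chr11:120098933-120098962, plus strand: aggcagggcccAAGATGGCggcgccctcga
Ndufa4l2, chr10:127514968-127514997, plus strand: gacactgggacAAGATGGCaggaactagtc

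The first base of the match lay at base 11 of the transcript in Ndufa9, 13 in Ndufa4l2, 17 in Ndufaf8, 23 in Ndufa3 and 37 in Ndufb8. Of the 7 members 6 were called in each list, and Ndufa4l2 in none. In the printed upstream stretches, the NRF1 letters began 82 bases before the start of Ndufs5 and 31 bases before that of Ndufs7, and Ndufs8 held 3 NFY matches that began 120, 70 and 16 bases before its start. Members with and without calls in every list both held motif matches, with SP letters in 17 of the 37 called throughout and in 4 of the other 7.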

How the data were processed

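leChRO-seq reads were deduplicated by the authors with their molecular identifiers, trimmed with cutadapt and aligned by BWA to mm10, and dREG was run at its defaults on the merged libraries of a substage. Per the labels, each substage had 4 libraries. The deposited values of each peak are a dREG score, a p-value, whose adjustment is not stated in the sources used here, and a centre position. The p-value is at most 0.05 in each list. Scores were ranked within a list only. The pooled lists hold no spread between libraries, and no test was made. Transcription start sites came from GENCODE M21, sequences and tRNA genes from the RefSeq GRCm38 assembly. The representative start was that of the best APPRIS transcript. Members and gene lists were chosen with earlier results of these data known. Named with their values were members without a call in at least 1 list, the 5 highest and 5 lowest mean ranks, and the 5 largest differences of each sign between successive lists. The remaining members, the opposite-strand neighbours, the YY1 sites and the tRNA genes were named after their values were seen. Values of 1 member are not reported here, though it is counted in the set. The steps were tested on simulated data. Analyses used Python 3.11.15, numpy 2.4.6, scipy 1.17.1 and matplotlib 3.10.9.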

Additional observations from a re-analysis of the deposited data

Results flagged for a closer look

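Peaks inside complex I genes, 1000 bp or more from their annotated starts, enter none of the comparisons and were looked at separately. The leptonema/zygonema list had 6, the pachynema list 7 and the diplonema list 4, in 3 members each. The highest was in Ndufaf2 in each list, with dREG scores of 1.14, 1.01 and 0.81, near the start of Smim15, and 2, 4 and 3 of the peaks lay under 1000 bp from another protein-coding gene. A second Ndufaf2 position without such a neighbour scored 1.01 in leptonema/zygonema from 108144831 to 108145480 and 0.605 in pachynema, and it had no diplonema peak. Of all 20807 autosomal protein-coding genes, 29.4, 27.7 and 16.3% held such a peak in the 3 lists in that order, against 6.82% of members in each. The median gene length was 8.54 kb in members and 17.6 kb in all genes. Per megabase of gene length, members held 8.32, 9.71 and 5.55 such peaks and all genes 16.8, 14.9 and 6.87.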

How the results depend on the processing

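Of 115 recalculated values, 110 stayed within 1.5 times the main count or within the 95% interval of the main value, and 5 moved. Measured from the representative TSS, the median peak centre in pachynema changed sign from -18 to 8 bp, within its interval of -48 to 8. Ranked among all peaks of a list instead of among called genes, the median ranks became 84.8, 88.1 and 80.1. With the motif window begun 100 bp before the TSS, the MYB and RFX shares of members each became 2.27%, against 7.06 and 5.61% of all genes. A minimum dREG score of 0.5 left 42, 38 and 32 members called, against 54.7, 54.4 and 43.1% of all genes, and then Ndufab1, Ndufa13, Ndufaf1, Ndufc2 and Ndufs6 had no diplonema call. With lists of equal size, 41, 38 and 37 were called, against 53.4, 53.8 and 52.3% of all genes. The median rank difference from leptonema/zygonema to pachynema was 3.94 to 10.3 points over the alternatives, and that from pachynema to diplonema -9.66 to -1.47. Ndufs3, Ndufs7 and Ndufs8 were called in leptonema/zygonema only under each alternative for peaks, starts and distances. No paired analysis was possible because the libraries of a substage were pooled before peaks were called. Read counts are not part of the lists, and the role of sequencing depth in a missing call was not tested.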
